A study of Mus musculus with 6 samples.

Results

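Lyz1, Lyz2, Chi3l3, F13a1, Pla2g7, Plek and Mpeg1 are 7 genes of mononuclear phagocytes whose RNA was lower with Satb1 siRNA in one experiment and, for 5 of the 7, higher with it in another. They are 7 of the 27634 genes in the deposited table, found by their symbols (Chi3l3 is the older name of Chil3). The genes were chosen by their log2 changes with Satb1 siRNA in both experiments, so those changes are given here as a description, with no test. The working name of the group, genes that reverse between the experiments, held for Lyz1, Lyz2, Chi3l3, F13a1 and Pla2g7. It did not hold for Plek and Mpeg1, which were lower in the low experiment and had a log2 change of -0.07 and -0.06 in the high experiment.

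The RNA came from cells labelled as cancer-associated dendritic cells of C57BL/6 mice that carried ID8-Defb29/Vegf-a, a mouse ovarian tumour line made to express a beta-defensin and VEGF-A. Tumours grew and treatment ran for 32 to 38 days. The mice were given 100 µg of siRNA, either against Satb1 or non-targeting (NT), with rhodamine-conjugated polyethylenimine nanocomplexes, which phagocytes take up. Satb1 encodes a nuclear protein that organises chromatin. The 4 groups shared the strain, the tumour and the days. They were Satb1 siRNA in an experiment with high downregulation of Satb1 (the high experiment, 2 libraries) and NT siRNA in the same experiment (2 libraries). The other pair was Satb1 siRNA in an experiment with low downregulation (the low experiment, 1 library) and NT siRNA in that experiment (1 library). The labels do not say how the cells were isolated or whether animals were pooled. The library kit kept total RNA and marked the strand.

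Lysozyme is an enzyme that cuts the peptidoglycan of bacterial cell walls. Mice have a pair of such genes, of which Lyz2 is the form of macrophages and neutrophils and Lyz1 is best known from Paneth cells of the gut. Mpeg1 encodes perforin-2, a pore-forming protein of phagocytes. Chi3l3 encodes Ym1, a chitinase-like protein without chitinase activity that is widely used as a marker of alternatively activated mouse macrophages and is also made by monocytes and neutrophils. F13a1 encodes the A subunit of coagulation factor XIII, a transglutaminase that cross-links fibrin and is made by monocytes and macrophages. Pla2g7 encodes the acetylhydrolase that inactivates platelet-activating factor, a lipid mediator, and Plek encodes pleckstrin, a protein kinase C substrate of platelets and leukocytes.

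The sequences just before the starts of the lysozyme genes are shown because these genes moved together in both experiments and are near-copies of each other. In RefSeq's annotation of GRCm38.p6 both lie on the minus strand of chromosome 10, with 0 genes between them. The 250 bases before the start lie at chr10:117292869-117293118 for Lyz1 and at chr10:117282273-117282522 for Lyz2. They were 80.6% identical, at 200 of 248 aligned bases. Capitals mark the run of 50 bases up to the start that is the same in both.
Lyz1: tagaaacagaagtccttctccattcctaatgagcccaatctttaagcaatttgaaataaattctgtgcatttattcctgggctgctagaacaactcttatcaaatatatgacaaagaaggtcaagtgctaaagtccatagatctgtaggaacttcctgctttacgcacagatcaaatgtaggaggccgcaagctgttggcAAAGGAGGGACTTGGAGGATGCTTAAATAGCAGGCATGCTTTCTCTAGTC
Lyz2: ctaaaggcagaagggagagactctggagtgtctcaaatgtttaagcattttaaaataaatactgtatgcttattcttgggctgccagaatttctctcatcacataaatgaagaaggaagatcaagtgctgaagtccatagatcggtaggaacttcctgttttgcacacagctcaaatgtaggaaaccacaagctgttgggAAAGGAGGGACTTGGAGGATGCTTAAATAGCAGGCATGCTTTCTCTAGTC

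Of the other genes, those with a searched motif are shown next. F13a1 (start 1 of 2, chr13:37050245-37050494, minus strand) and Plek (chr11:17008719-17008968, minus strand) each held GAGGAA, a core of sites for the myeloid factor PU.1, in capitals. Both strands were searched. It began at position -66 in F13a1 and, as its reverse complement, at position -61 in Plek, counted back from the start.
F13a1: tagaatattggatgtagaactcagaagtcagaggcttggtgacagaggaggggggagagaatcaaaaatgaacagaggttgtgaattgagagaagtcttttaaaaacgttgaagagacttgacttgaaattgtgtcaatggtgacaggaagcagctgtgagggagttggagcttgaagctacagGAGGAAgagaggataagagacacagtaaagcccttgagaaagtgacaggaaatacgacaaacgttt
Plek: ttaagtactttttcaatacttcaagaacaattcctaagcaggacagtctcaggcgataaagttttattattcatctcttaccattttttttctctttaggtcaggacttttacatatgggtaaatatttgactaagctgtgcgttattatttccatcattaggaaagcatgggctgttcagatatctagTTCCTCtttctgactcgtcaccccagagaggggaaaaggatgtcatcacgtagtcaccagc

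GAGGAA was present in 23.3% of 32851 promoters of the same length. The C/EBP-type motif TTGCNNAA, present in 9.56% of them, was found in the Lyz1 promoter (at position -209, on the other strand) and in no other window of the 7 genes. The AP-1-type motif TGANTCA (6.75% of promoters), an interferon-type motif of spaced GAAA repeats (2.98%) and the TATA box TATAAA (12.4%) were not in these windows. These matches describe letters and not binding. The share of A and T was 63.6% in the Chi3l3 window, 62.0% in Plek, 60.0% in Mpeg1, 58.8% in Lyz1 and 58.4% in Lyz2, against a median of 47.6% over all promoters. It was 57.2% and 45.6% at the F13a1 starts and 47.2% in Pla2g7.

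Total counts were 49022011 to 51710612 in the high Satb1 siRNA libraries and 67774712 to 71272720 in the high NT libraries, and 24553454 in the low Satb1 siRNA library and 27029554 in the low NT library. The repeats of a group differed by little more than counting noise, with a mean chi-square per gene of 1.37 for Satb1 siRNA and 1.202 for NT, against 67.4 between repeat 1 of each group. The fit entered them as 2 libraries per group, and its p-values rest on the small differences between these repeats. They are read here as 1 sample per group, so adjusted p-values below compare these libraries and not the conditions. Satb1 itself had 3.12 and 3.58 TMM-scaled CPM (counts relative to the library total, scaled for composition over all 6 libraries) in the high Satb1 siRNA libraries, against 16.6 and 15.3 in the high NT libraries, a fall of 2.25 ± 0.072 on the log2 scale (SE; edgeR adjusted p = 1.74e-39). In the low experiment it had 165 counts with Satb1 siRNA and 170 with NT, a ratio of 0.835 with a 95% counting interval of 0.670 to 1.04. Relative to library totals alone the ratio was 1.07 (0.857 to 1.33), so no lower level of Satb1 was detectable at this depth in the library labelled as low Satb1 siRNA. Within the low experiment "Satb1 siRNA" is therefore the label of a library and not a measured loss of Satb1.

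The labelled cell type was set beside sums of its markers. The 12 dendritic cell markers summed to 256 to 270 CPM in the high Satb1 siRNA libraries and 461 to 464 in the high NT libraries. They summed to 10900 CPM in the low Satb1 siRNA library and 11100 in the low NT library. The 11 macrophage markers summed to 13000 to 13100 CPM in the high Satb1 siRNA libraries and 11800 in the high NT libraries, and to 14000 CPM in the low Satb1 siRNA library and 23600 in the low NT library. In the high experiment the libraries therefore held far more RNA of the macrophage list than of the dendritic cell list, although no dendritic cell marker was at 0 in any library. Single genes led these sums. Apoe had 9470 and 9390 CPM in the high Satb1 siRNA libraries. Cd74, on the dendritic cell list, had 6390 CPM in the low Satb1 siRNA library and 6810 in the low NT library. The sums of such unlike lists do not settle which cells were present. In bulk RNA, fewer cells of a type and less RNA per cell cannot be told apart.

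All 7 genes were abundant and passed the filter on low counts. By FPKM, which is per length and so allows genes to be compared, Lyz2 was the third most abundant of all genes in each of the 6 libraries. In the high Satb1 siRNA libraries the order of the levels was Lyz2, F13a1, Chi3l3, Lyz1, Mpeg1, Pla2g7 and Plek, from 9138 to 9150 FPKM for Lyz2 down to 195 to 196 for Plek. In the high NT libraries it was Lyz2, F13a1, Mpeg1, Lyz1, Plek, Chi3l3 and Pla2g7, from 5780 to 5787 FPKM down to 165 to 166. In the low Satb1 siRNA library the order was Lyz2, Lyz1, Mpeg1, Pla2g7, Chi3l3, Plek and F13a1, from 4811 down to 108 FPKM. In the low NT library it was Lyz2, Lyz1, Mpeg1, Chi3l3, Pla2g7, Plek and F13a1, from 8164 down to 170 FPKM. No 2 neighbours in the high orders overlapped between repeats. In the low Satb1 siRNA library Lyz1 (711 FPKM) and Mpeg1 (703 FPKM) were close, and 1 library gives no spread to set them apart.

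**Figure D1:**
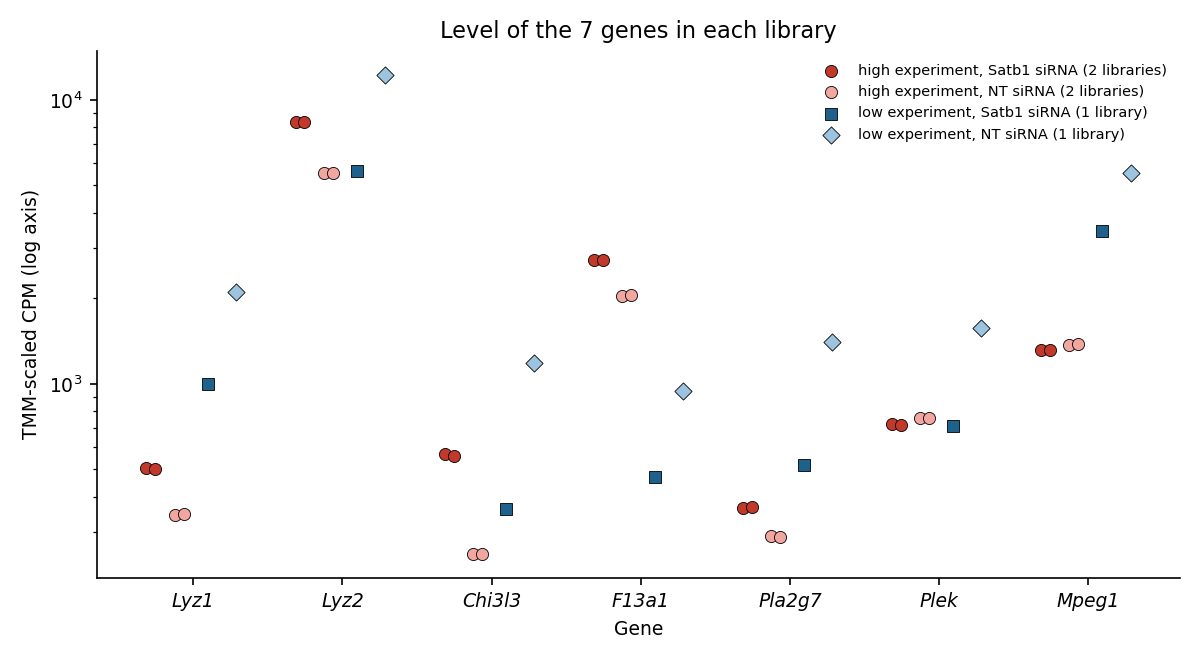
TMM-scaled CPM of the 7 genes (log axis) in each of the 6 libraries, 1 point per library. The 2 points of each high group lie on top of each other for every gene, and with this scaling (for Lyz2, not by share of the library total) the low NT library is the highest for every gene but F13a1.

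Lyz2, the myeloid lysozyme, had 8381 and 8370 TMM-scaled CPM in the high Satb1 siRNA libraries, against 5533 and 5545 in the high NT libraries. In the low experiment it had 5640 CPM with Satb1 siRNA, against 12260 with NT. The high groups did not overlap and the Satb1 siRNA libraries were the higher ones, while in the low experiment the NT library was higher. With TMM scaling the low NT library was the highest of the 6. By share of the library total the high Satb1 siRNA libraries were highest, at 0.955 to 0.956%, against 0.867% in the low NT library. In the high experiment this was 0.60 ± 0.0019 on the log2 scale (SE derived from edgeR's fit, as for all SEs here), or 1.52-fold. The ratio was 0.460 in the low experiment, with a 95% counting interval of 0.457 to 0.463, or -1.12 on the log2 scale.

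Lyz1 had 505 and 504 TMM-scaled CPM in the high Satb1 siRNA libraries, against 347 and 350 in the high NT libraries. It had 1003 CPM in the low Satb1 siRNA library, against 2104 in the low NT library. Lyz1 thus went the same way as Lyz2 in each experiment, but both low libraries lay above all 4 high libraries. Its log2 fold change was 0.54 ± 0.0076 (SE) in the high experiment. Its ratio in the low experiment was 0.477 (0.469 to 0.485).

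Within a library, the lysozyme genes can be set against each other without any scaling. Lyz1 made up 5.68% (95% Wilson interval 5.62 to 5.74) and 5.68% (5.61 to 5.74) of the lysozyme counts in the high Satb1 siRNA libraries, against 5.89% (5.82 to 5.96) and 5.93% (5.87 to 6.00) in the high NT libraries. It made up 15.1% (14.9 to 15.3) in the low Satb1 siRNA library, against 14.7% (14.5 to 14.8) in the low NT library. The share of Lyz1 thus differed far more between the experiments than between the siRNAs, and the small difference between siRNAs had opposite signs in the 2 experiments. The transcripts are 96.0% identical over 1262 aligned bases in GENCODE's annotation. Of the 50-base windows of the Lyz1 transcript, 16.1% occur unchanged in Lyz2, so the division of reads between them rests on the authors' counting step and their single values are uncertain. Summed as 1 gene they had 8886 and 8874 CPM in the high Satb1 siRNA libraries, against 5880 and 5895 in the high NT libraries. The sum was 6643 CPM in the low Satb1 siRNA library, against 14360 in the low NT library.

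**Figure D2:**
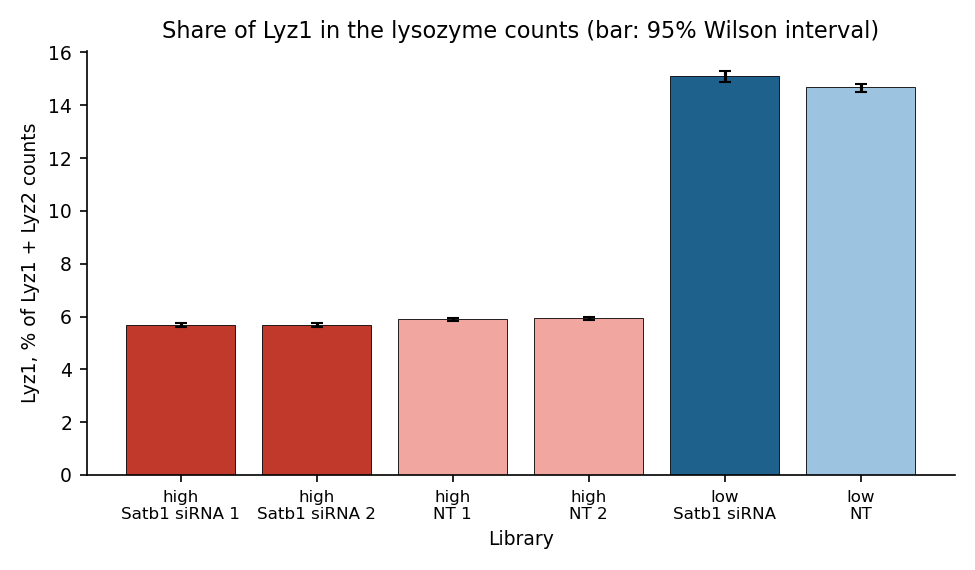
Lyz1 as a percentage of the Lyz1 and Lyz2 counts in each library, with 95% Wilson intervals as bars. The 4 high libraries lie between 5.68 and 5.93% and the low libraries at 15.1% (Satb1 siRNA) and 14.7% (NT).

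Mpeg1, the perforin-2 gene, had 1315 and 1321 TMM-scaled CPM in the high Satb1 siRNA libraries, against 1376 and 1384 in the high NT libraries. It had 3456 CPM in the low Satb1 siRNA library, against 5518 in the low NT library. The high groups did not overlap but lay close together, at a log2 fold change of -0.06 ± 0.0038 (SE). The ratio in the low experiment was 0.626 (0.620 to 0.632), the smallest difference of the 7.

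Chi3l3, the Ym1 gene, had 565 and 559 TMM-scaled CPM in the high Satb1 siRNA libraries, against 253 and 252 in the high NT libraries. It had 362 CPM in the low Satb1 siRNA library, against 1182 in the low NT library. It had the largest value of the 7 genes in both directions. The log2 fold change was 1.16 ± 0.0087 (SE) in the high experiment, or 2.23-fold, the 11th highest of 12319 genes whose log2 CPM averaged at least 1. The ratio in the low experiment was 0.306 (0.298 to 0.314), the 85th lowest of those genes. Of the 50-base windows of its transcript, 29.4% occur unchanged in other genes, Chil4 (Ym2) and Gm6522, so its counts also depend on how reads were divided. The other 4 genes (F13a1, Pla2g7, Plek and Mpeg1) shared no such window with another gene.

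F13a1, the factor XIII A subunit, had 2728 and 2723 TMM-scaled CPM in the high Satb1 siRNA libraries, against 2047 and 2052 in the high NT libraries. It had 471 CPM in the low Satb1 siRNA library, against 946 in the low NT library. The log2 fold change was 0.42 ± 0.0014 (SE) in the high experiment and the ratio was 0.498 (0.486 to 0.510) in the low experiment. This SE is smaller than counting error alone, and library size as the only scaling moved the log2 fold change to 0.47. F13a1 was the one gene of the 7 that was lower in both low libraries than in any high library.

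Pla2g7, the platelet-activating factor acetylhydrolase, had 367 and 370 TMM-scaled CPM in the high Satb1 siRNA libraries, against 293 and 290 in the high NT libraries. It had 519 CPM in the low Satb1 siRNA library, against 1404 in the low NT library. The log2 fold change was 0.34 ± 0.0098 (SE) in the high experiment. The ratio in the low experiment was 0.370 (0.362 to 0.378), the lowest after Chi3l3.

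Plek, the pleckstrin gene, had 723 and 717 TMM-scaled CPM in the high Satb1 siRNA libraries, against 758 and 757 in the high NT libraries. It had 711 CPM in the low Satb1 siRNA library, against 1572 in the low NT library. With TMM scaling the low NT library stood apart from the other 5, which lay between 711 and 758 CPM. By share of the library total both low libraries stood apart, with 0.0644% in the low Satb1 siRNA library and 0.111% in the low NT library, against 0.0818 to 0.0830% in the 4 high libraries. The log2 fold change was -0.07 ± 0.0041 (SE) in the high experiment, and the ratio in the low experiment was 0.452 (0.444 to 0.461).

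**Figure D3:**
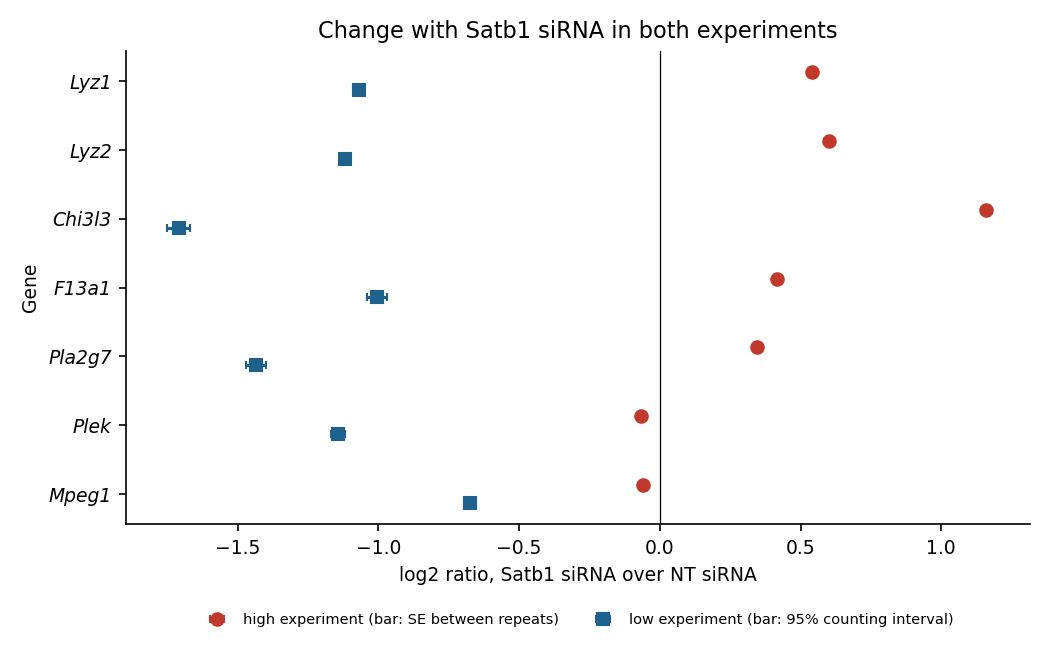
Log2 ratio of Satb1 siRNA over NT siRNA for each gene in the high experiment (circles) and the low experiment (squares, bars 95% counting interval). Bars of the circles, labelled SE between repeats, are the SE derived from edgeR's fit. Chi3l3 has the widest gap, with 1.16 in the high and -1.71 in the low experiment, and Plek and Mpeg1 have circles just below 0.

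In edgeR's fit of the high experiment, 66.0% of 20242 genes tested were called at an adjusted p under 0.05, 32.8% higher (6645 genes) and 33.2% lower (6722 genes) with Satb1 siRNA. With library size as the only scaling the split was 7690 higher and 5682 lower. Among the same 12319 genes, 4.38% were higher by at least 0.5 on the log2 scale in the high experiment and 8.65% lower. Lyz1, Lyz2 and Chi3l3 were past 0.5 upward, and none of the 7 was past it downward. In the low experiment, which has 1 library per siRNA and so no test, 15.5% of those genes were higher by at least 0.5 and 14.9% lower. All 7 genes were among the lower ones. Mpeg1 lost that place with library size alone (-0.32) and with the deposited FPKM (-0.32), while the other 6 kept it under both. Higher in the high experiment and lower in the low one at any size were 5 of the 7, against 16.8% of the 12319 genes (8.34% with library size alone, 21.8% with DESeq2 size factors and 24.5% with upper quartile scaling), and past 0.5 in both were 3 of the 7, against 0.731%. These contrasts chose the genes, so the shares place them and nothing is read from them.

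The median log2 change of the 7 genes was 0.41 in the high experiment and -1.12 in the low experiment, beside -0.06 and -0.07 over the 12319 genes. The high value minus the low value, both scaled over 6 libraries, was 2.86 for Chi3l3, 1.78 for Pla2g7, 1.72 for Lyz2, 1.60 for Lyz1, 1.42 for F13a1, 1.07 for Plek and 0.61 for Mpeg1. Scaling by library size alone moved the median low ratio of all genes to 0.28. Relative to the median of all genes the 7 low values were then between -1.64 and -0.603, and with TMM scaling between -1.64 and -0.605. Relative to that median the high values of Plek and Mpeg1 were -0.01 and -0.01 under both scalings. A scaling factor shifts all genes of a library alike and subtracting the median removes it. This likeness of the scalings was therefore fixed in advance.

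**Figure D4:**
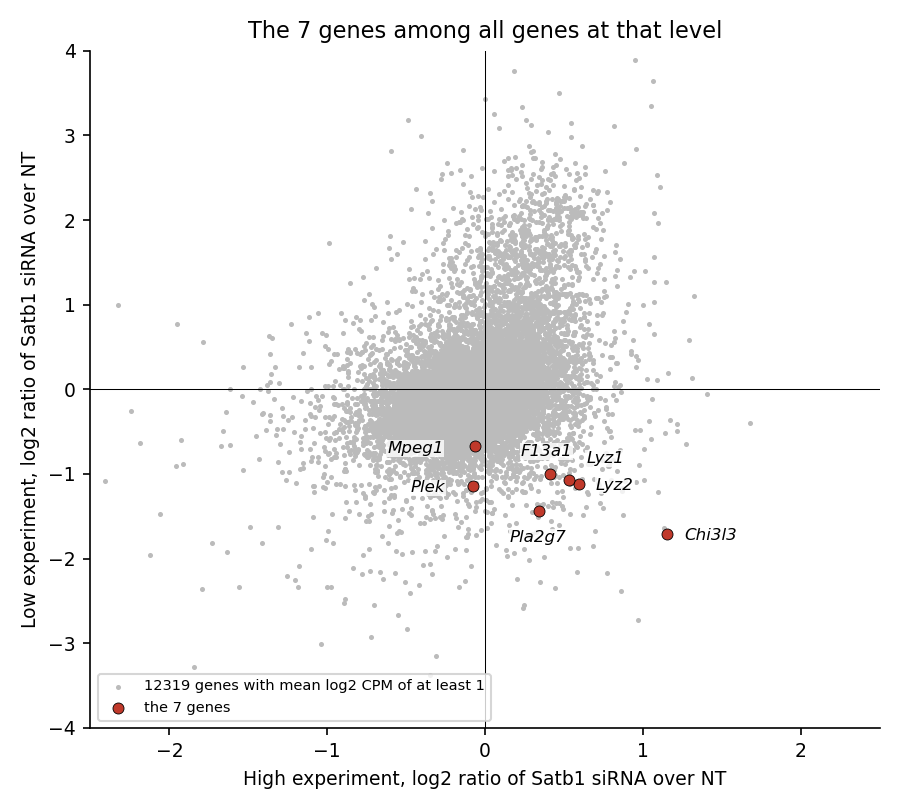
Log2 ratio of Satb1 siRNA over NT in the high experiment (x axis) and the low experiment (y axis) for 12319 genes, both scaled over 6 libraries; 11 genes lie outside the axes. Lyz1, Lyz2, Chi3l3, F13a1 and Pla2g7 lie at the lower right and Plek and Mpeg1 just left of the vertical line.

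The NT libraries of the experiments also differed from each other. Against the mean of the high NT libraries, the low NT library was 2.60 higher on the log2 scale for Lyz1, 2.27 for Pla2g7, 2.23 for Chi3l3, 2.00 for Mpeg1, 1.15 for Lyz2 and 1.05 for Plek. F13a1 was the exception, at -1.12. Past 0.5 were 6 of the 7 genes upward and 1 downward, against 39.9% and 31.2% of all 12319 genes. The median of the 7 was 2.00 and that of all genes 0.15. Library size alone moved the median of all genes to -0.48. On that scale the values were 1.97 for Lyz1, 1.64 for Pla2g7, 1.60 for Chi3l3, 1.37 for Mpeg1, 0.52 for Lyz2 and -1.75 for F13a1, and Plek, at 0.42, was no longer past 0.5. Between the Satb1 siRNA libraries, low over high, the values were 1.39 for Mpeg1, 0.99 for Lyz1, 0.49 for Pla2g7, -0.02 for Plek, -0.57 for Lyz2, -0.64 for Chi3l3 and -2.53 for F13a1. With TMM scaling Lyz2 in the low Satb1 siRNA library lay near the high NT libraries, at 5640 against 5533 and 5545 CPM. By share of the library total it did not, at 0.511% against 0.606 and 0.607%. Some nuclear-retained RNAs also differed. The 4 on the list summed to 30500 to 30700 CPM in the high Satb1 siRNA libraries and 25800 to 25900 in the high NT libraries, and to 2420 CPM in the low Satb1 siRNA library and 1930 in the low NT library. Malat1 made up most of the sum. In the low NT library relative to the high NT libraries the log2 ratio was -4.35 for Malat1, -2.97 for Kcnq1ot1 and -0.18 for Neat1, which was chosen after its values were seen. Their part in the result was not tested, and experiment and library batch cannot be told apart.

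Markers of some cell types were also mostly lower in the low Satb1 siRNA library, and those of others were mostly higher. Of the 11 macrophage markers, 8 were lower by at least 0.5 in the low Satb1 siRNA library and 0 higher, with a median of -0.74 (-0.38 with library size alone). In the high experiment 4 of the 11 rose and 7 fell, with a median of -0.26. Apoe, a lipid carrier and the most abundant of them, had 9470 and 9390 CPM in the high Satb1 siRNA libraries, against 7720 and 7710 in the high NT libraries. It rose there by 0.30 ± 0.0049 (SE; edgeR adjusted p = 0.000354) and had a log2 ratio of -0.92 in the low experiment, the same directions as the lysozymes. Itgam, the integrin CD11b, fell by 0.06 ± 0.0030 in the high experiment (edgeR adjusted p = 8.05e-12), near the median of -0.06 over the 12319 genes. Its low log2 ratio was -0.58. Relative to the summed counts of these 11 markers, a scaling chosen after seeing the data, the low log2 ratios shrank to -0.96 for Chi3l3, -0.69 for Pla2g7, -0.40 for Plek, -0.37 for Lyz2, -0.32 for Lyz1 and -0.26 for F13a1. For Mpeg1 the ratio became 0.07. The high values on that scale were 1.01 for Chi3l3, 0.45 for Lyz2, 0.39 for Lyz1, 0.27 for F13a1, 0.20 for Pla2g7, -0.21 for Mpeg1 and -0.22 for Plek. Apoe makes up most of that sum in the high libraries. Relative to the median change of the 11 markers, also chosen after seeing the data, the high values were 1.42 for Chi3l3, 0.86 for Lyz2, 0.80 for Lyz1, 0.68 for F13a1, 0.61 for Pla2g7, 0.20 for Mpeg1 and 0.19 for Plek. The low ratios on that scale were -0.97 for Chi3l3, -0.70 for Pla2g7, -0.40 for Plek, -0.38 for Lyz2, -0.33 for Lyz1, -0.27 for F13a1 and 0.06 for Mpeg1.

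Of 9 neutrophil markers tested, 4 rose and 2 fell in the high experiment, with a median of 0.35, and 7 of 8 were lower by at least 0.5 in the low experiment, with a median of -1.64. Their sum was 380 to 381 CPM in the high Satb1 siRNA libraries and 309 to 310 in the high NT libraries, and 1040 CPM in the low Satb1 siRNA library and 1850 in the low NT library. Mmp9, a gelatinase of neutrophil granules and macrophages, made up most of it. It rose by 0.37 ± 0.013 in the high experiment (edgeR adjusted p = 2.21e-38) and had a low log2 ratio of -0.62. Csf3r, the G-CSF receptor, had a high log2 value of 0.04 that did not pass the test (edgeR adjusted p = 0.337) and a low log2 ratio of -0.65. Camp, a granule protein gene, was at 0 in one library of each high group. Among monocyte markers other than Chi3l3 and F13a1, 4 of 14 rose and 9 fell in the high experiment (median -0.22), and 1 was higher and 7 lower in the low experiment (median -0.51, or -0.15 with library size alone). Their sum was 4020 to 4050 CPM in the high Satb1 siRNA libraries and 6340 in the high NT libraries, and 5920 CPM in the low Satb1 siRNA library and 9120 in the low NT library. Thbs1, the adhesive glycoprotein thrombospondin-1, led that sum and fell by 1.09 ± 0.0072 (edgeR adjusted p = 5.60e-05). Fn1, which encodes fibronectin, rose by 0.15 ± 0.0038 (edgeR adjusted p = 4.12e-16), with low log2 ratios of -1.14 for Thbs1 and -0.18 for Fn1. Of the 5 progenitor markers tested, 2 rose and 2 fell in the high experiment. The sum of all 8 stayed at 62.0 CPM or below in all 6 libraries, with Kit as its largest part. Of the 2 that averaged a log2 CPM of at least 1, Kit had a low log2 ratio of 1.12 and Prtn3 of -1.24. Below that level the ratios were -1.78 for Mpo, -1.5 for Fcnb, -1.39 for Elane, -1.34 for Ctsg, -0.65 for Ms4a3 and -0.05 for Cd34. Mpo had 77 counts in the low Satb1 siRNA library and 230 in the low NT library, and Fcnb 6 and 16.

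Mesothelial and tumour epithelial markers were higher by at least 0.5 in 9 of 9 in the low experiment (median 1.64), with a sum of 680 CPM in the low Satb1 siRNA library and 191 in the low NT library. In the high experiment 8 of 10 rose and 0 fell (median 0.18), with a sum of 961 to 970 CPM with Satb1 siRNA and 867 to 870 with NT. Of 12 dendritic cell markers, 6 rose and 6 fell in the high experiment, with a median of -0.10. In the low experiment 6 of 11 were higher and 0 lower, with a median of 0.77. Cd74, the class II invariant chain, fell by 0.96 ± 0.022 in the high experiment (edgeR adjusted p = 5.88e-43) and had a low log2 ratio of -0.09. Of 10 resident peritoneal macrophage markers, 7 rose and 2 fell in the high experiment (median 0.44), and 3 were higher and 3 lower in the low experiment. B cell markers rose in 7 of 9 tested (median 0.81), T cell markers in 5 of 10 (median 0.49) and erythroid markers in 1 of 5, with 0 falling in each. In the low experiment B cell markers were lower by at least 0.5 in 4 of 6 and higher in 1 (median -0.55), and 5 of the 6 were higher in the high and lower in the low experiment at any size, as the reversing genes were. Of 4 T cell markers, 1 was lower by at least 0.5 and 0 higher (median -0.14), and 3 had opposite signs in that way. Of 3 erythroid markers 1 was lower and 0 had opposite signs in that way. The summed levels of these 3 lists stayed at 70.8 CPM or below in every library. Among the other cell type lists, opposite signs in that way were seen in 6 of 8 neutrophil, 4 of 11 macrophage and 3 of 14 monocyte markers. They were seen in 3 of 10 resident macrophage, 1 of 2 progenitor, 1 of 11 dendritic cell and 0 of 9 mesothelial and tumour epithelial markers. The share over the 12319 genes was 16.8%. The part of these cell types in the values of the 7 genes was not tested.

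**Figure D5:**
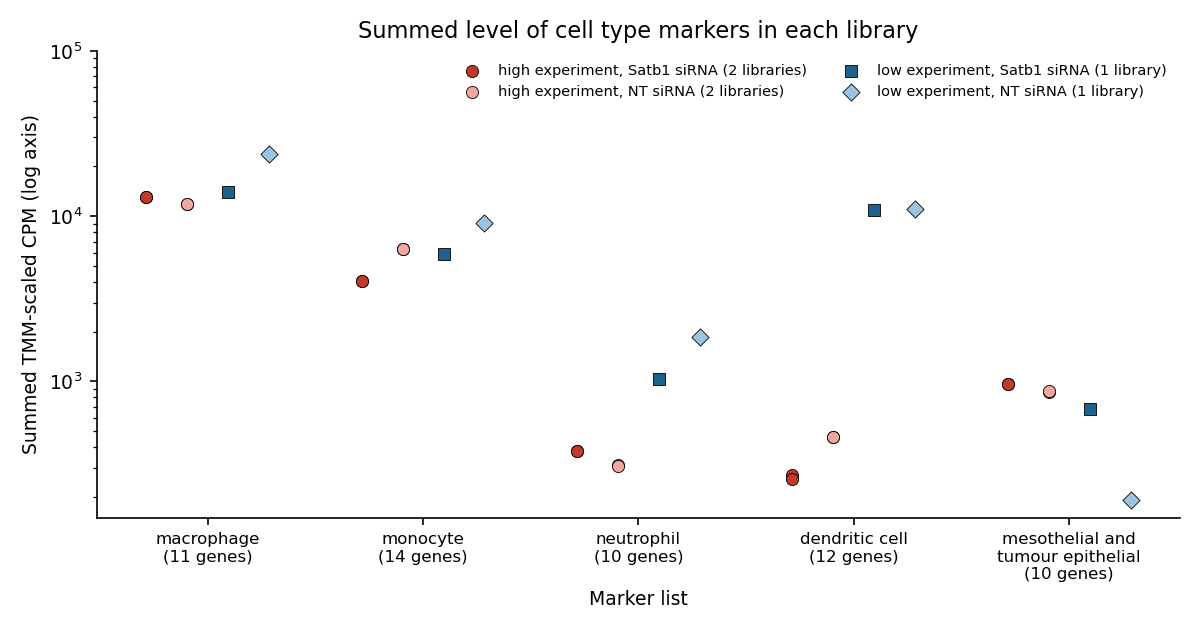
Summed TMM-scaled CPM (log axis) of 5 marker lists, without the 7 genes, in each of the 6 libraries. Macrophage and neutrophil sums are highest in the low NT library, while dendritic cell sums are far higher in both low libraries and mesothelial sums lowest in the low NT library.

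Other genes of the same families and pathways were counted in the same way. The 8 other lysozyme family genes summed to at most 1.27 CPM in any library. Of the 5 other chitinase genes tested, 2 rose and 1 fell in the high experiment, and 0 of 2 passed 0.5 in the low one. Ctbs, which degrades chitobiose units of glycoproteins, rose by 0.18 ± 0.027 (edgeR adjusted p = 3.79e-08) and Chid1, a chitinase-like gene, fell by 0.55 ± 0.033 (edgeR adjusted p = 6.52e-25). Their low log2 ratios were -0.09 and -0.09.

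Of the 12 other genes of alternative activation, the state that Chi3l3 marks, 2 rose and 9 fell in the high experiment (median -0.45), and 3 were higher and 2 lower of 11 in the low experiment. Arg1, arginase 1, had 6230 and 6220 CPM in the high Satb1 siRNA libraries, against 6960 and 6990 in the high NT libraries. It fell by 0.16 ± 0.0047 (edgeR adjusted p = 0.00115) and had a low log2 ratio of -0.71. Mrc1, the mannose receptor, rose by 0.09 ± 0.0019 (edgeR adjusted p = 5.64e-53) and had a low log2 ratio of -0.34.

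Of the 7 other transglutaminase genes, 2 rose and 2 fell in the high experiment and 0 of 4 passed 0.5 in the low one. Tgm2, the tissue transglutaminase, fell by 0.63 ± 0.015 (edgeR adjusted p = 2.91e-49) and had a low log2 ratio of -0.06. Of the 7 other genes of platelet-activating factor, 2 rose and 2 fell in the high experiment, and 1 was higher and 3 lower in the low one. Ptafr, the receptor of that lipid, had a high log2 value of -0.03 (edgeR adjusted p = 0.152) and a low log2 ratio of -0.79. Pafah1b1, a subunit of the intracellular acetylhydrolase, rose by 0.07 ± 0.011 (edgeR adjusted p = 1.36e-07) and had a low log2 ratio of -0.00424.

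Of the 8 other pleckstrin and protein kinase C genes, 3 rose and 2 fell in the high experiment, and 1 of 7 was higher and 1 lower in the low one. Prkcd, protein kinase C delta, had a high log2 value of -0.02 (edgeR adjusted p = 0.370) and a low log2 ratio of -0.51. Of 6 other pore-forming genes tested, 1 rose and 1 fell. Gsdmd, gasdermin D, fell by 0.24 ± 0.025 (edgeR adjusted p = 3.28e-13) and had a low log2 ratio of -0.45. Of 11 myeloid transcription factor genes tested, 4 rose and 6 fell in the high experiment (median -0.22), and 1 was higher and 3 lower of 10 in the low one. Irf8, a factor of monocytes and dendritic cells, fell by 0.27 ± 0.021 (edgeR adjusted p = 1.68e-19) and had a low log2 ratio of -0.17.

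The genes whose levels over the 4 groups were most like the mean pattern of the 7 were ranked among 9333 genes whose log2 CPM averaged at least 3. Likeness was the Euclidean distance between log2 levels centred on each gene's own mean, over 4 group values, and is a description. The nearest were Agtrap (distance 0.197), 1110032A03Rik (0.219), Mxra7 (0.246), Bmp2 (0.249), Selp (0.270), Ppp2r5a (0.278), Cacna2d4 (0.300) and Klra2 (0.319). Agtrap, which encodes a protein that binds the angiotensin II receptor, had 92.9 and 91.9 CPM in the high Satb1 siRNA libraries, against 79.7 and 81.5 in the high NT libraries. It had 90.5 CPM in the low Satb1 siRNA library, against 185 in the low NT library. With TMM scaling, in Agtrap as in Lyz2 and Chi3l3, the low NT library was highest and the high Satb1 siRNA libraries came above the high NT libraries. Of the 7 genes themselves, Plek (0.375), Lyz2 (0.399), Chi3l3 (0.663) and Pla2g7 (0.745) lay closest to their mean pattern. Lyz1 and Mpeg1 lay at 1.14 and F13a1, with its low levels in the low experiment, at 2.49. Among the 9333 genes, the rank from the nearest was 20 for Plek, 29 for Lyz2, 356 for Chi3l3 and 661 for Pla2g7. It was 3466 for Lyz1, 3506 for Mpeg1 and 8433 for F13a1, so the mean pattern describes Lyz1, Mpeg1 and F13a1 poorly.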

How the data were processed

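RNA-seq libraries of 6 samples in 4 groups were used. Per the file headers, the deposited table gives an FPKM value and a count per gene and library. The authors' counts are taken for estimated counts, since RSEM 1.2.12, with DESeq2 and the genome build mm9, is named in the submitters' processing notes; they were already whole. The authors' FPKM values are relative to length and library size and served for levels between genes. No aligner, filter or strand setting is given in the sources used here.

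edgeR 4.0.16 in R 4.3.3 (quasi-likelihood, robust, TMM, filterByExpr, two-sided, Benjamini-Hochberg, threshold 0.05) was fitted to the 4 high libraries, without a replicate block. SEs are the size of the log2 fold change divided by the square root of the fit's F statistic, and so are model values. They can be smaller than counting error alone, as for F13a1, Plek and Mpeg1. Low ratios, differences and control ratios are log2 CPM with TMM over 6 libraries and a prior count of 2; a log2 ratio of 0.5 is 1.41-fold. Intervals of ratios are exact conditional binomial, those of shares Wilson. Intervals cover counting error only, and a count of 0 allows up to 3 counts (0.0421 to 0.122 CPM). The fit and the intervals were tested on simulated data.

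The 7 genes, the 19 lists (183 of 189 entries matched, 1 by another symbol) and the rules were chosen with earlier results of these data known. Beside the 7 genes and Satb1, the rule names the 2 most abundant other genes of each list (1 of them is not reported here) and the 8 nearest patterns; Camp and Neat1 were chosen after their values were seen. RefSeq promoters were matched by symbol for 7 of 7 genes (Chi3l3 as Chil3) and transcripts came from GENCODE. Alignments used Biopython 1.88. Alternatives were other scalings, filters, tools, pseudocounts and leaving out libraries.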

Additional observations from a re-analysis of the deposited data

Results flagged for a closer look

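For 5 genes every high Satb1 siRNA library lay above every high NT library while the low Satb1 siRNA library lay below the low NT library. The high log2 value minus the low one was 2.86 for Chi3l3, 1.78 for Pla2g7, 1.72 for Lyz2, 1.60 for Lyz1 and 1.42 for F13a1. The differences were not tested, and the genes were chosen for them. The low value of each rests on 1 library per siRNA.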

How the results depend on the processing

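The count of genes called in the high experiment, 13367, was 13372 with library size alone, 13386 with DESeq2 size factors in edgeR, 14391 without the filter, 13611 with all 6 libraries as 4 group means and 10099 in DESeq2. It was 13248 with the replicate block, and leaving out 1 library gave 11942 to 12092. The correlation between same-numbered deviations was r = 0.00355 across 12925 genes. The repeats differed by little more than counting noise, so this r cannot show whether replicate numbers pair libraries. The count of genes that reverse, 5, became 7 with upper quartile scaling, 6 relative to the median macrophage marker change (a scaling chosen after seeing the data) and 4 of 6 with the lysozymes summed. It was 5 with the other scalings, a prior count of 0.5, deposited FPKM with a pseudocount of 0.1 and each high library left out. Lyz1, Lyz2, Chi3l3, F13a1 and Pla2g7 kept both directions in every alternative run.

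The high value of Plek became 0.0054 with upper quartile scaling and 0.19 relative to the median macrophage change, and that of Mpeg1 0.013 and 0.20. The low value of Mpeg1 became 0.073 relative to summed macrophage counts and 0.064 relative to their median change, and its difference became -0.28 relative to summed counts. The cause was not tested. With library size alone, which moves the median low ratio of all genes to 0.284, these list medians changed sign. In the low experiment they became 0.27 for chitinases, 0.29 for alternative activation, 0.20 for transglutaminases, 0.35 for platelet-activating factor, 0.14 for pleckstrin, 0.072 for transcription factors, 0.29 for progenitors, 0.15 for resident macrophages and 0.21 for T cells. The low medians of chitinases and progenitors each rest on 2 genes. Those of macrophage and monocyte markers kept their sign, at -0.38 and -0.15. In the high experiment they became 0.036 for platelet-activating factor and 0.051 for pleckstrin. With 1 low library per siRNA the spread between samples of the low experiment is unknown, whatever the depth.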
